A study of Homo sapiens with 6 samples.

Results

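A pseudogene is a copy of a gene that no longer encodes the protein of its parent. The pseudogenes described here are the rows of the deposited table whose annotated biotype is a pseudogene and whose level averaged at least 5 TPM over all 6 libraries, without the genes of the mitochondrial genome and without the KRT16 pseudogenes. TPM is a unit of transcript abundance that corrects for gene length and sums to the same total in every library. Of 60504 rows in the table, 14488 were pseudogenes that this rule could take, 804 of them averaged at least 1 TPM, and 290 reached the threshold. The members comprised 172 of the processed types, 110 of the unprocessed types and 8 unitary pseudogenes. The members were chosen by their mean level, so the levels are a description, while the comparison between cultures was not used to choose members. Just inside the threshold lay RP11-255H23.2 at a mean of 5.04 TPM, PKD1P6 at 5.02 TPM and FAAHP1 at 5.003 TPM, and just outside it lay RPL24P4 at 4.995 TPM, RP11-1212A22.1 at 4.98 TPM and UBE2Q2P2 at 4.97 TPM.

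The cells were HCC827, a human lung adenocarcinoma line, and all libraries came from poly(A) RNA read as single reads of 75 nt. The 2D group held 3 libraries from monolayers kept in uncoated flasks for 4 to 6 days, and the 3D group held 3 libraries from tumoroids kept in droplets of growth factor reduced Matrigel for 12 to 16 days. Both groups came from the same line and differed in geometry, culture time and contact with gel at once, and these cannot be told apart. The labels do not say that the libraries of a group were separate cultures, and a p-value here is set by how far these 3 and 3 libraries scatter, whether that scatter is biological or technical. The read depth behind each TPM value is unknown.

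A processed pseudogene arises when a messenger RNA is copied back into DNA and inserted elsewhere in the genome, so it lacks introns and usually its parent's promoter. An unprocessed pseudogene arises by duplication of genomic DNA and can keep introns and regulatory sequence, and a unitary pseudogene is a gene that lost its function with no working copy left. Transcripts of highly expressed housekeeping genes, above all those of ribosomal proteins, are the commonest templates of processed pseudogenes. Because copies can be nearly identical to their parents, a short read may fit both, and the level of such a pseudogene can hold reads of its parent.

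Of the 7 epithelial markers examined (EPCAM, KRT8, KRT18, KRT19, CDH1, KRT7 and NKX2-1), all 7 averaged at least 1 TPM. None of 4 endothelial markers did, 1 of 5 fibroblast markers did (COL1A1), and 1 of 5 leukocyte markers did (CD14). The fibroblast markers summed to 6.77 to 12.07 TPM in 3D and 2.1 to 2.74 TPM in 2D, and their part in the results was not tested. The third library of each group lay farthest from the other libraries of its group over all tested genes, with a root mean square distance of 0.49 in 3D and 0.56 in 2D on the log2 scale. The other 4 libraries lay at 0.41 to 0.44. In bulk RNA, fewer cells that express a gene and less of its RNA per cell cannot be told apart.

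The sequences below show how far members could be told from their coding relatives, and they recur beside the results. Each is the coding stretch of 90 nt with the most differences between a member's transcript and that of its closest coding gene, from GENCODE 29 on GRCh38, and capitals mark the bases that differ.
RPS23P8: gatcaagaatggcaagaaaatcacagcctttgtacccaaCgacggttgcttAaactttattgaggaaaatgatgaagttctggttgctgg
RPS23: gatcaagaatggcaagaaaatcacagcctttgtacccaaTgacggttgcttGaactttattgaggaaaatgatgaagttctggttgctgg
CTB-63M22.1: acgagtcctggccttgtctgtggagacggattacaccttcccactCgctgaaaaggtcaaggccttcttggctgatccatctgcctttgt
RPLP0: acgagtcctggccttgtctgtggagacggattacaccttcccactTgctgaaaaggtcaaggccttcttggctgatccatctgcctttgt
NAMPTP1: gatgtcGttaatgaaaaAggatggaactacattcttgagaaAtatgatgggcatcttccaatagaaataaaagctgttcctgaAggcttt
NAMPT: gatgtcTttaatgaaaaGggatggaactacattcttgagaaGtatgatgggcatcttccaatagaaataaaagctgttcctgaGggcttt
MTATP6P1: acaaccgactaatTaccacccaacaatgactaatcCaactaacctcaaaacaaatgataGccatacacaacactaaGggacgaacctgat
MT-ATP6: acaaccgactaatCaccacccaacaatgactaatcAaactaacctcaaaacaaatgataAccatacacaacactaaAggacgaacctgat
RP11-157G21.2: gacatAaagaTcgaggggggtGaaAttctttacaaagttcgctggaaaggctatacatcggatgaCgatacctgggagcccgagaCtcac
MPHOSPH8: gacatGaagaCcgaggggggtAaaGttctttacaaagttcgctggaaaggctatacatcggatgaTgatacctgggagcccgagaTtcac
AC112229.1: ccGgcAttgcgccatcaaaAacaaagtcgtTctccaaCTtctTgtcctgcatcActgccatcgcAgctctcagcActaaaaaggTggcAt
ZNF532: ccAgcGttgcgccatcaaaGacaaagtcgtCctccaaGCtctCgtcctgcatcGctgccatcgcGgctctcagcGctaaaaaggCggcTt

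The stretches ran from 1 difference in CTB-63M22.1 to 6 in RP11-157G21.2 and 12 in AC112229.1. To put a number on this, every stretch of 75 nt of a member's transcripts, the length of a read, was looked up on the same strand in the transcripts of all other genes. Of the 172 processed members, 160 had a closest coding gene that aligned over at least 50% of the member's transcript, with a median identity of 98.58%, and 20 aligned at 100%. The median share of its 75-nt windows found elsewhere was 49.17% in processed members, with all windows shared in 24 members and none in 12. The unprocessed members were less alike their relatives. There 98 of 110 had a closest coding gene, the median identity was 95.74%, the median share of windows found elsewhere was 28.01%, and 8 members shared all windows while 14 shared none.

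Levels of the processed members went with this overlap. The median level was 7.33 TPM among the 35 processed members with under 10% of windows shared, 9.54 TPM among the 52 with 10 to 50%, 23.1 TPM among the 54 with 50 to 90%, and 37.3 TPM among the 31 with 90% or more. In the unprocessed types the corresponding medians were 7.95, 10.3, 8.38 and 9.01 TPM, with no such order. RSEM, which the submitters' processing notes name, assigns reads that fit several genes by estimation, and each level printed below is uncertain by the reads that could belong to a relative. Reads of overlapping genes are uncertain in the same way.

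Most of the pseudogene RNA by this measure came from a few processed copies of ribosomal protein genes. The processed members summed to 16619 ± 1218 TPM in 3D (SD, n = 3) and 19781 ± 611 TPM in 2D (SD, n = 3), between 1.54% and 2.05% of each library. Every 3D library, at 16539, 15443 and 17876 TPM, lay below every 2D library, at 19289, 20464 and 19589 TPM. The 10 most abundant held 70.9% of that sum, 4 members exceeded 1000 TPM, and 74 of 172 lay between 5 and 10 TPM.

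RP11-466H18.1, whose current symbol is RPL36AP37, measured 3985.22, 3405.51 and 4045.82 TPM in the 3D libraries and 4374.05, 4692.78 and 4042.15 TPM in the 2D libraries. The groups overlapped, with a log2 fold change of -0.20 (SE 0.15, limma adjusted p = 0.405). It is a copy of RPL36A, a protein of the large ribosomal subunit, and lies in an intron of PLEKHA7 on the same strand. Its level was 2.16 times that of RPL36A itself, which averaged 1894 TPM, although no 75-nt window separates them. PLEKHA7, an adherens junction protein, averaged 18.4 TPM.

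RPL9P9, a copy of the large subunit gene RPL9, measured 1689.61, 1616.59 and 1948.27 TPM in 3D and 2173.62, 2427.59 and 1959.26 TPM in 2D. RP11-572P18.1 (RPL21P16), identical to its parent RPL21 over 483 nt, measured 1420.71, 1341.56 and 1543.34 TPM in 3D and 1789.21, 2073.34 and 1789.89 TPM in 2D. RPS23P8, a copy of the small subunit gene RPS23 that differs at the bases in capitals above, measured 1166.86, 1124.88 and 1318.17 TPM in 3D and 1434.51, 1711.07 and 1233.48 TPM in 2D. The 2D libraries lay above the 3D libraries without overlap for RPL9P9 and RP11-572P18.1 and overlapped for RPS23P8, and none of the 3 differences passed the test (adjusted p = 0.196, 0.104 and 0.298 by limma). RP11-572P18.1 stood at 4.81 times the level of RPL21.

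Next in level came RPL41P1 at a mean of 823 TPM, PPIAP22 at 740 TPM, RP11-641D5.1 (RPL22P1) at 687 TPM, CTB-63M22.1 (RPLP0P9) at 589 TPM, RPS2P5 at 521 TPM and RPL18AP3 at 499.9 TPM. All but PPIAP22, a copy of the cyclophilin A gene PPIA, derive from ribosomal protein genes. RPL41P1 is 81 nt long and identical to RPL41, so only 7 windows of read length fit in it. Of the 6, only CTB-63M22.1 passed the test between cultures.

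**Figure D1:**
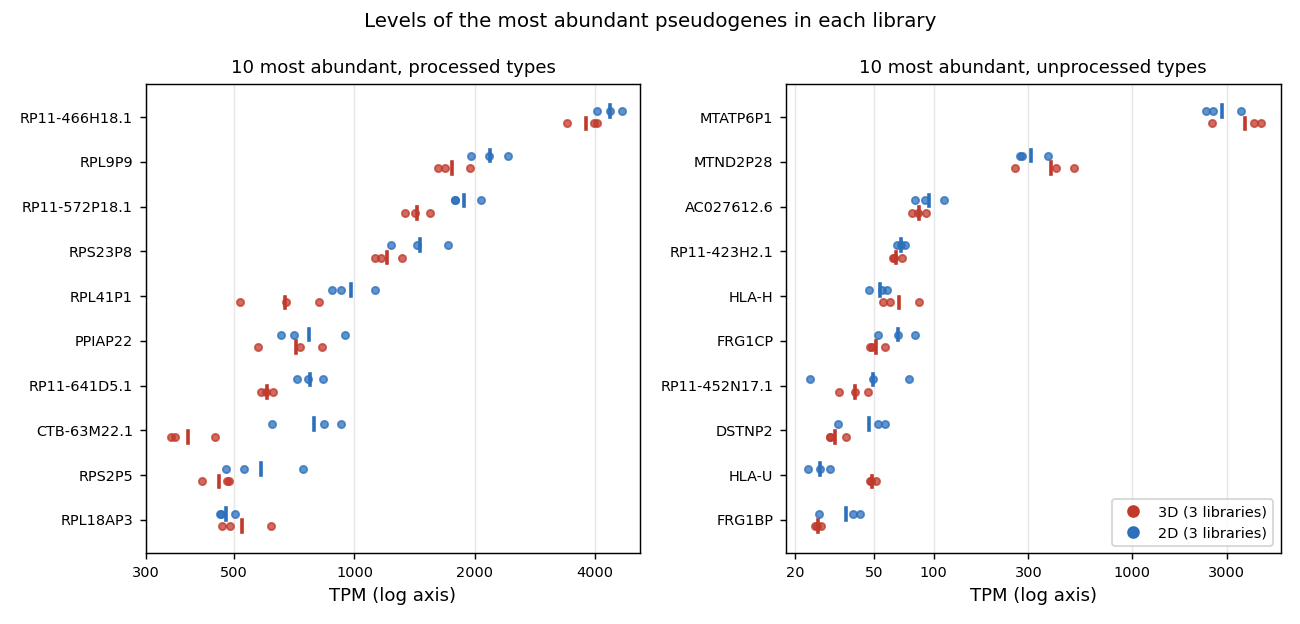
TPM on a log axis of the 10 most abundant processed members (left) and the 10 most abundant unprocessed members (right), 3D in red and 2D in blue; each dot is a library and each bar the mean of 3. CTB-63M22.1 and HLA-U are the 2 of these 20 whose difference passed the test; MTATP6P1 and MTND2P28 stand far above the other unprocessed members.

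Most members stayed below the level of their coding relative. A level above it was found in 11 of 157 processed members whose closest coding gene averaged at least 1 TPM, and in 17 of 89 unprocessed members. Among the processed ones were RP11-641D5.1, at 2.10 times RPL22, and BTF3L4P2, at 1.76 times the transcription factor gene BTF3L4, with which it shared every window. Among the unprocessed ones, AC027612.6 (LSP1P4) averaged 89.4 TPM, 33.7 times LSP1, a leukocyte actin-binding protein gene that averaged 2.65 TPM.

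Over all 15042 genes tested, limma called 10.2% higher and 2.12% lower in 3D at an adjusted p under 0.05, with a median log2 fold change of 0.12. Of the 172 processed members, 8 were called higher (4.65%), 5 lower (2.91%) and 159 neither. Their median log2 fold change was -0.11, with 67 positive and 105 negative. All 3D libraries lay above all 2D libraries in 16 processed members (9.3%, against 27.3% of all tested genes), and all 2D libraries above all 3D libraries in 26 (15.1%, against 9.4%).

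Of the 110 unprocessed members, 11 were called higher (10%), 1 lower (0.909%) and 98 neither, close to the shares over all genes. Their median log2 fold change was 0.18, with 67 positive and 43 negative, and it was -0.02 with quantile normalization. The 8 unitary members had no call and a median of 0.04, with 1 of them at an unadjusted p under 0.05. Counting only members with at least 5 TPM in both groups' means, 5 of 154 processed members were called higher and 4 lower, and 5 of 86 unprocessed members were called higher and 1 lower.

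These counts moved with the scaling and with single libraries. Under median-ratio scaling the median gene shifted by -0.15 and the calls over all genes went from 82.8% higher to 58.5% higher. The processed members then gave 7 higher and 12 lower, and the unprocessed members 6 higher and 5 lower. Without 3D replicate 2, for instance, 2 processed members were called higher and 1 lower, and without both libraries numbered 3, 18 were called higher and 21 lower. Of the 25 calls, 5 were kept under each of 16 alternative settings: RP11-157G21.2, TCEB1P19 and AC112229.1 among the processed, and RP1-229K20.5 and RP11-155G14.5 among the unprocessed members. Each of these 5 averaged at least 5 TPM in only 1 culture and so became a member through the culture where it is high, as did 4 of the 13 called processed and 6 of the 12 called unprocessed members in all. For such members a difference between cultures is favoured by the choice itself, and their place among the stable or large changes is a description.

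**Figure D2:**
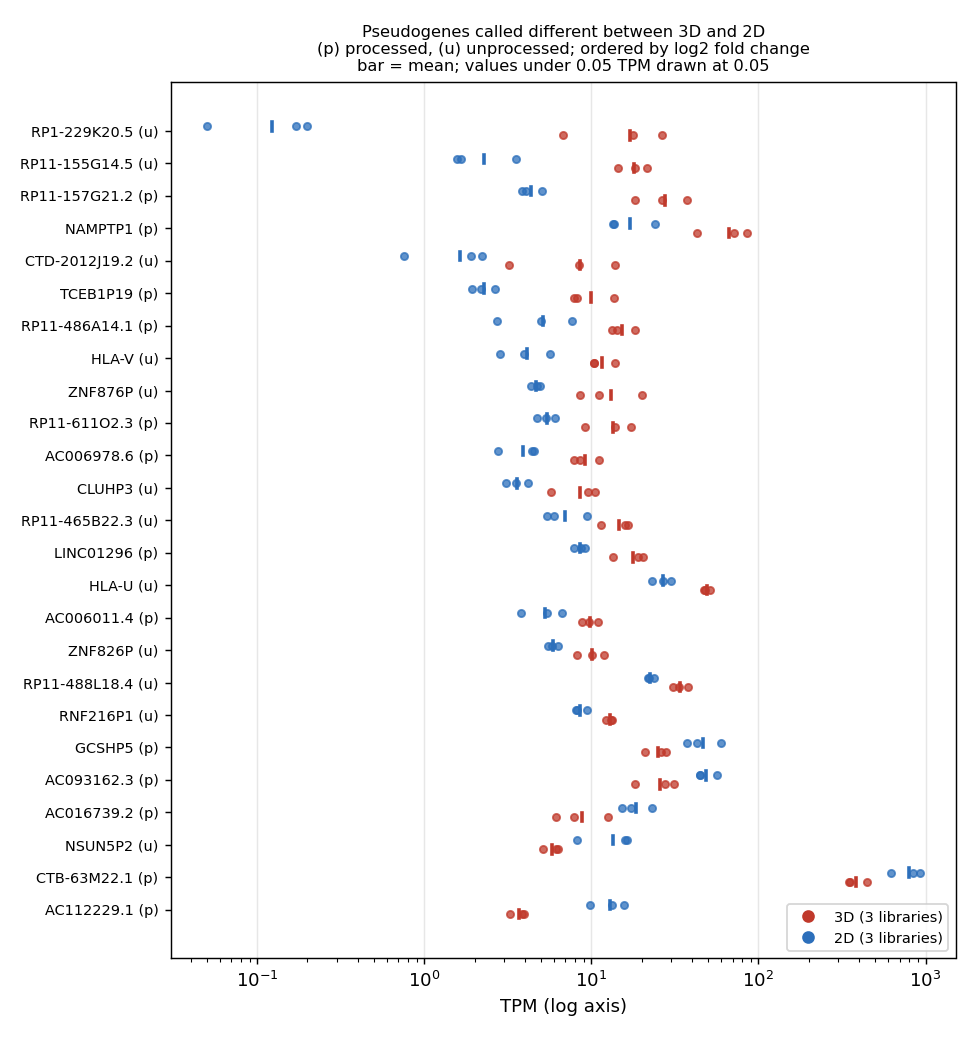
TPM on a log axis of the 25 members called different between cultures, ordered by log2 fold change from the top; dots are libraries (3D red, 2D blue), bars are means of 3, and p or u marks processed or unprocessed types. In each member the 3D and 2D dots do not overlap, and RP1-229K20.5 at the top has 2D values of 0.2 TPM or less.

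The largest family, copies of cytosolic ribosomal protein genes, had mostly negative log2 fold changes and few calls. It held 59 processed members, taken by the coding gene of the deposited name or, where that name gave none, by the closest coding sequence. Of these, limma called 0 higher, against 10.2% of all tested genes, and 2 lower (3.39%, against 2.12%). An unadjusted p under 0.05 was found in 13 of the 59, and in 4727 of all 15042 tested genes. The log2 fold change was negative in 47, and the median was -0.23. With AC006011.4, a ribosomal copy by its current symbol only, and CENPBD1P1, whose closest sequence is RPL23A, there were 61 members. Of these, 1 was called higher (1.64%) and 2 lower (3.28%), with a median of -0.20. The 82 coding RPL and RPS genes had 0 called higher, 2 lower (2.44%) and a median of -0.25, with 77 negative. Both medians were negative under each scaling tried, at -0.40 and -0.43 with median-ratio scaling. The family summed to 12989 ± 1033 TPM in 3D and 16107 ± 1038 TPM in 2D (SD, n = 3), while the coding genes summed to 179076 ± 12359 TPM in 3D and 214970 ± 22232 TPM in 2D.

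CTB-63M22.1, a copy of part of RPLP0, the stalk protein of the large subunit, measured 354.56, 347.63 and 448.34 TPM in 3D and 619.9, 924.66 and 838.01 TPM in 2D. It fell by 1.04 on the log2 scale (SE 0.19, limma adjusted p = 0.0166), and its groups were well apart. RPLP0 itself fell by 0.54 (limma adjusted p = 0.0493). The change of the copy against that of RPLP0 was -0.50 (SE 0.21, limma adjusted p = 0.332 over 645 pairs), and 66.1% of its windows occur in RPLP0. The call was lost when 3D replicate 1, 3D replicate 2 or 2D replicate 2 was left out, and without the filter on low levels.

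AC016739.2, a copy of the other stalk gene RPLP1, measured 6.16, 7.85 and 12.54 TPM in 3D and 15.28, 17.31 and 23.12 TPM in 2D. It fell by 1.02 on the log2 scale (SE 0.26, limma adjusted p = 0.0433), a call lost under 7 of 16 alternatives. RPL3P4, a copy of RPL3, showed 113.21, 82.17 and 83.02 TPM in 3D against 129.25, 345.05 and 161.58 TPM in 2D, without overlap but short of the threshold (log2 fold change -1.07, limma adjusted p = 0.0821). The largest positive value in the family, 2.34 for the RPL36A fragment RP11-328L11.1, came from 2D libraries at 75.82, 0 and 15.36 TPM, which overlapped with 3D, and did not pass (limma adjusted p = 0.271).

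The smaller processed families had 0 called members, with 1 unadjusted p under 0.05 each among the translation factor, ferritin, chaperone and chromatin copies. Copies of translation factor genes (7 members) had a median log2 fold change of -0.14, of chromatin and nucleolar genes (8 members) -0.18, of ferritin genes (3 members) -0.28, of keratin genes (3 members) -0.56, and of HNRNPA1, an RNA-binding protein gene (3 members), 0.19. The 3 chaperone copies, PPIAP22 among them, had a median of 0.14, and -0.02 with median-ratio scaling and -0.07 with quantile normalization. With median-ratio or quantile scaling, 1 translation factor copy and 1 chromatin copy were called lower. Among the translation factor copies EEF1A1P5, a copy of the elongation factor gene EEF1A1, measured 334.22, 358.16 and 320.70 TPM in 3D and 390.49, 366.12 and 359.91 TPM in 2D. LDHAP4, a copy of the lactate dehydrogenase gene LDHA, measured 48.82, 52.97 and 64.17 TPM in 3D and 19.76, 19.95 and 78.83 TPM in 2D, where 2D replicate 3 alone was high.

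NAMPTP1 was the most abundant processed member to be called higher. It measured 71.38, 85.79 and 42.66 TPM in 3D and 13.59, 13.41 and 23.91 TPM in 2D, with all 3D libraries above all 2D libraries. It rose by 1.90 on the log2 scale (SE 0.31, limma adjusted p = 0.0114). NAMPT, the rate-limiting enzyme of NAD salvage and its parent, measured 495.46, 664.98 and 315.06 TPM in 3D and 92.18, 91.78 and 181.92 TPM in 2D and rose by 2.02 (SE 0.34, limma adjusted p = 0.0139). In both genes 3D replicate 3 was the lowest of its group and 2D replicate 3 the highest of its group. The copy's change differed from that of NAMPT by -0.11 (SE 0.17, limma adjusted p = 0.841 over the sequence pairs), and it shared 52.1% of its windows with NAMPT despite the substitutions shown above.

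RP11-157G21.2 reached the membership threshold through its level in 3D. This processed copy of MPHOSPH8, a chromodomain protein of the HUSH silencing complex, measured 26.41, 37.56 and 18.32 TPM in 3D and 3.84, 5.06 and 4.09 TPM in 2D. It rose by 2.37 on the log2 scale (SE 0.25, limma adjusted p = 0.00253), whereas MPHOSPH8 had a log2 fold change of 0.23 and did not pass (adjusted p = 0.296). The difference between them was 2.13 (SE 0.31, limma adjusted p = 0.0261), and only 13.8% of the copy's windows occur in MPHOSPH8.

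TCEB1P19 (ELOCP19), an old copy of the elongin C gene TCEB1 at 87.7% identity, shared no window with any gene. It measured 8.25, 13.57 and 7.86 TPM in 3D and 1.94, 2.66 and 2.19 TPM in 2D, and rose by 1.71 on the log2 scale (SE 0.23, limma adjusted p = 0.00625). TCEB1 averaged 717 TPM with a log2 fold change of 0.03. Against the gene of its name, the difference was 1.68 (SE 0.30, limma adjusted p = 0.0456), where 0.275% of 364 such pairs were called higher, 1.37% lower and 1.65% in either direction. Paired by closest sequence, with more pairs tested, the adjusted p was 0.0547. By name, 0 pairs were called higher with a pseudocount of 0.1, with the replicate block, at a minimum of 5 TPM, or without 3D replicate 1, 3D replicate 2, 2D replicate 1 or 2D replicate 2.

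AC112229.1, which reached the threshold through its level in 2D, had the lowest log2 fold change of the called members. It is a processed copy of the zinc finger gene ZNF532 on chromosome 2 (chr2:110360608-110363737, GRCh38) and measured 3.97, 3.27 and 3.87 TPM in 3D and 15.72, 13.35 and 9.75 TPM in 2D. It fell by 1.55 on the log2 scale (SE 0.20, limma adjusted p = 0.00483). ZNF532 was called in the other direction, with a log2 fold change of 0.58 (adjusted p = 0.0368), and the difference was -2.13 (SE 0.23, limma adjusted p = 0.00949). Most of its shared windows, 56.6% of all, lie in AC013268.3, which averaged 1.47 TPM and was also lower in 3D (log2 fold change -1.26, limma adjusted p = 0.0256).

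The other processed members called lower were AC093162.3 (SNRPEP11), a fragment of the spliceosomal Sm protein gene SNRPE with a log2 fold change of -0.92, and GCSHP5, a copy of the glycine cleavage gene GCSH, with -0.86. The others called higher were RP11-486A14.1 at 1.48, RP11-611O2.3 at 1.14, AC006978.6, a diverged copy of the proteasome gene PSMC5, at 1.06, LINC01296 (DUXAP10), a copy of the homeobox gene DUXA, at 0.94, and AC006011.4 (RPS26P19) at 0.80. DUXA itself was listed at 0 in every library. DUXAP9, of whose windows 72.3% occur in LINC01296, measured 20.31, 21.60 and 13.12 TPM in 3D and 11.69, 14.26 and 15.26 TPM in 2D, and did not pass (log2 fold change 0.37, limma adjusted p = 0.265).

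Across members, changes ran with those of the closest coding gene. Over the 157 processed members with a tested relative, Pearson's r between the log2 fold changes was 0.51 and Spearman's rho 0.55, and 117 pairs had the same sign. Over 89 unprocessed members r was 0.42, rho 0.52, and 64 pairs had the same sign. Pairs share libraries, scaling and, for many, reads, and members with the same parent are not independent, so these values describe the members only. Of 248 members paired by closest sequence, 3 changed differently from their relative, 1 higher and 2 lower, where 0.31% and 1.24% of all 645 pairs were called. RP11-157G21.2 and AC112229.1 are given above, and the unprocessed member ENSG00000239969 differed from the zinc finger gene RBAK by -1.30 (SE 0.20, limma adjusted p = 0.0273). RP11-157G21.2 averaged at least 5 TPM only in 3D and AC112229.1 only in 2D, so the choice of members favoured their calls and this count. ENSG00000239969 averaged 5.125 TPM over all libraries, just above the threshold.

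The median absolute difference from the closest gene was 0.33 in processed members with under 10% of windows shared, 0.20 with 10 to 50%, 0.16 with 50 to 90% and 0.22 with 90% or more. In the unprocessed types the values were 0.30, 0.27, 0.18 and 0.34. Of the 11 unprocessed members called higher, 9 shared under 10% of their windows with other genes, a class of 37 members. Over all tested genes 10.2% were called higher. Among these 9, RP1-229K20.5, HLA-V, ZNF876P and CLUHP3 averaged at least 5 TPM only in 3D. The choice of members favoured their calls and so this count. Of the 13 called processed members, 4 shared under 10% of their windows, a class of 35 members. Over all tested genes 12.3% were called in either direction. At least TCEB1P19 among these 4 likewise reached 5 TPM only in 3D, so the choice favoured this count too.

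**Figure D3:**
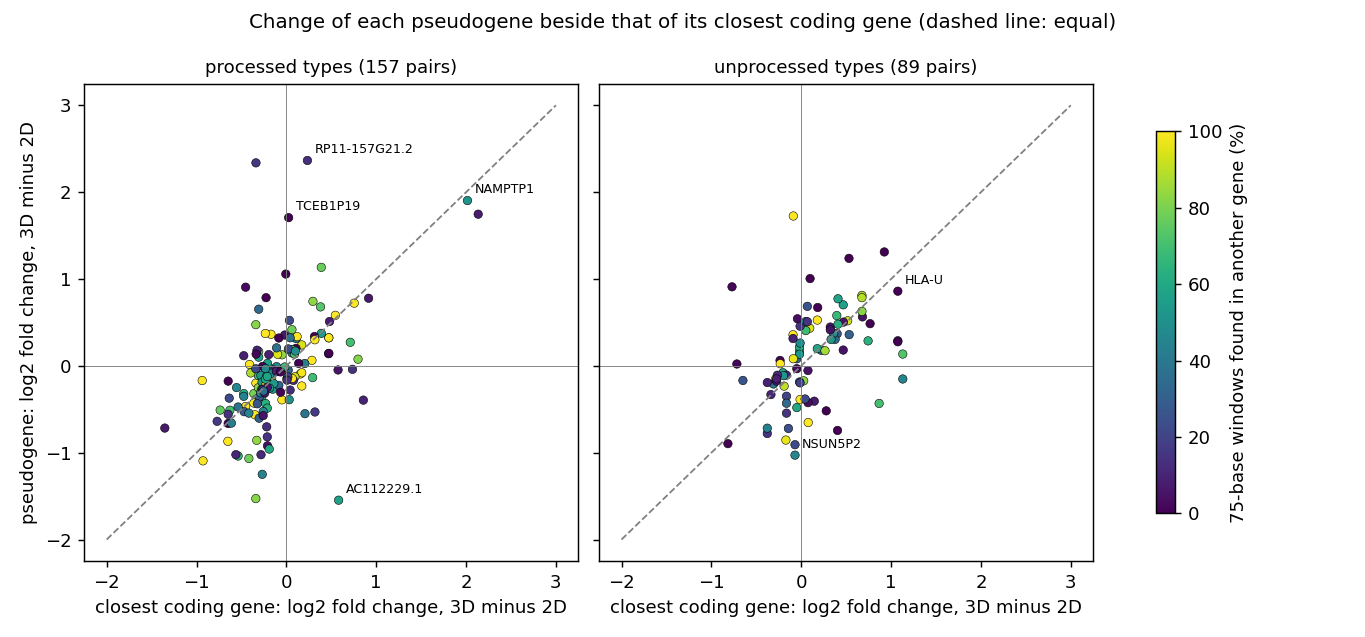
Log2 fold change (3D minus 2D) of each member against that of its closest coding gene, processed types at left (157 pairs) and unprocessed types at right (89 pairs), coloured by the percentage of its 75-nt windows found in another gene. Most dots lie near the dashed line of equal change; RP11-157G21.2 and TCEB1P19 lie above it and AC112229.1 below it.

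The unprocessed types were led by insertions of mitochondrial DNA into the nuclear genome. MTATP6P1, a copy of the ATP synthase gene MT-ATP6 on chromosome 1, measured 4129.51, 4458.97 and 2529.78 TPM in 3D and 2569.68, 2371.88 and 3545.30 TPM in 2D. The groups overlapped, since 3D replicate 3 lay near the lower 2D libraries and 2D replicate 3 was high (log2 fold change 0.37, SE 0.26, limma adjusted p = 0.366). MT-ATP6 itself averaged 13965 TPM with the same order of libraries within each group and a log2 fold change of 0.40 (limma adjusted p = 0.354). The copy was 98.5% identical to it, with the substitutions shown above, and shared 28.0% of its windows.

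MTND2P28, a copy of the complex I gene MT-ND2, measured 413.67, 507.23 and 255.86 TPM in 3D and 271.34, 277.13 and 378.24 TPM in 2D, and 3D replicate 3 was again the lowest of its group and 2D replicate 3 the highest. The 5 members named for mitochondrial genes, 1 of them of a processed type, summed to 4153 ± 1169 TPM in 3D and 3182 ± 689 TPM in 2D (SD, n = 3), and limma called 0 of them (0 had an unadjusted p under 0.05). Their log2 fold changes lay between 0.18 and 0.38 and were positive under each scaling tried. Genes of the mitochondrial genome summed to 193562, 193801 and 123099 TPM in the 3D libraries and 143705, 156578 and 175396 TPM in the 2D libraries. The part of these transcripts in the levels of the nuclear copies was not tested.

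Without these insertions, the 106 remaining unprocessed members summed to 1491 ± 13.8 TPM in 3D and 1381 ± 93.1 TPM in 2D (SD, n = 3). The 3D libraries, at 1498, 1499.9 and 1475 TPM, all lay above the 2D libraries, at 1450, 1417 and 1275 TPM. The ratio of the 3D to the 2D mean was 1.08, and the sums were not compared under other scalings. The median log2 fold change of all 110 unprocessed members was 0.18, 0.03 with median-ratio scaling and -0.02 with quantile normalization. The sum includes members that averaged at least 5 TPM in only 1 culture. Of such unprocessed members, 17 had positive and 7 negative log2 fold changes, so the choice of members can favour a higher sum in 3D.

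**Figure D4:**
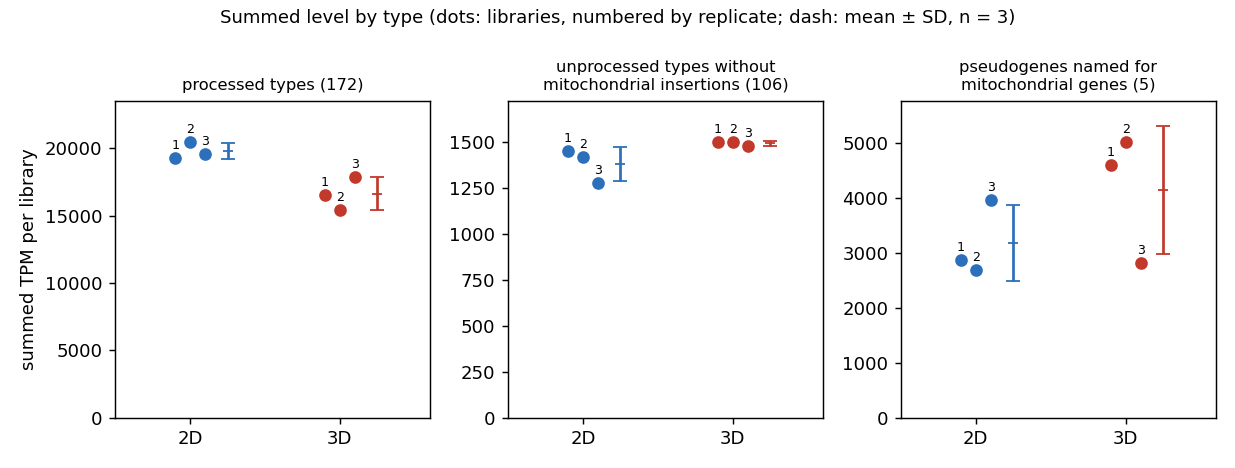
Summed TPM per library of the 172 processed members, of the 106 unprocessed members that are not mitochondrial insertions, and of the 5 members named for mitochondrial genes; numbers mark replicates and the bar at the side of each group is the mean ± SD of 3 libraries. The processed sum is lower in every 3D library than in every 2D library, and the sum of the mitochondrial insertions overlaps between groups.

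The HLA pseudogenes, relics of class I antigen-presenting genes in the major histocompatibility complex, were positive in all 4 members, with 2 called higher, where 10.2% of all tested genes were. HLA-U measured 47.54, 48.14 and 51.22 TPM in 3D and 29.94, 26.85 and 23.19 TPM in 2D, and rose by 0.86 on the log2 scale (SE 0.14, limma adjusted p = 0.0107). HLA-V measured 10.42, 13.80 and 10.41 TPM in 3D and 2.84, 3.93 and 5.66 TPM in 2D, and rose by 1.31 (SE 0.23, limma adjusted p = 0.0151). HLA-V averaged at least 5 TPM only in 3D, so the choice of members favoured its call and the count of 2. HLA-U shared no window with another gene and HLA-V 0.35% of its windows, so in the reference their reads were distinct from those of the coding genes.

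HLA-H, at 55.23, 60.06 and 84.74 TPM in 3D and 55.14, 47.43 and 58.32 TPM in 2D, overlapped between groups (log2 fold change 0.29, limma adjusted p = 0.318). HLA-L had a log2 fold change of 0.28 (limma adjusted p = 0.464). Of the coding class I genes, HLA-B rose by 1.32, HLA-C by 0.80 and HLA-E by 0.92 on the log2 scale (limma adjusted p = 0.00921, 0.0358 and 0.0172). HLA-V against HLA-E, its closest coding gene, did not pass the pair test (difference 0.39, SE 0.35, limma adjusted p = 0.685).

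Several unprocessed members are copies of 1 gene. NSUN5P2 and NSUN5P1 are copies of NSUN5, a methyltransferase of ribosomal RNA. NSUN5P2 measured 6.11, 6.30 and 5.14 TPM in 3D and 15.94, 16.26 and 8.25 TPM in 2D and fell by 1.03 on the log2 scale (SE 0.26, limma adjusted p = 0.0404), the 1 unprocessed member called lower. NSUN5P1 measured 5.65, 8.60 and 6.63 TPM in 3D and 16.27, 17.16 and 9.26 TPM in 2D (log2 fold change -0.91, limma adjusted p = 0.0567), while NSUN5 had a log2 fold change of -0.07. Both copies were called lower with median-ratio or quantile scaling. The call of NSUN5P2 was lost without the filter on low levels. It was also lost when 3D replicate 1, 3D replicate 2, 2D replicate 1 or 2D replicate 2 was left out. The copies share windows with each other, 30.9% of those of NSUN5P2, and their differences from NSUN5, -0.96 and -0.84, did not pass the pair test (limma adjusted p = 0.129 and 0.141).

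SMG1P1, SMG1P3 and SMG1P4, copies of the nonsense-mediated decay kinase gene SMG1, had a median log2 fold change of 0.79 with 0 called (1 at an unadjusted p under 0.05). They share 82.3% to 88.7% of their windows with other genes, and SMG1 itself rose by 0.68 (limma adjusted p = 0.0493). GOLGA2P7 and GOLGA2P10, copies related to a Golgi matrix protein gene, measured 26.38, 28.38, 27.00 and 27.89, 30.39, 23.44 TPM in 3D against 23.49, 17.65, 13.52 and 21.95, 16.64, 11.69 TPM in 2D. Both had the 3D libraries above the 2D libraries and did not pass (limma adjusted p = 0.0886 and 0.0811). The remaining copy of this name, GOLGA2P5, averaged 6.27 TPM with a log2 fold change of 0.18. Its groups overlapped.

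The 4 FRG1 copies had a median log2 fold change of -0.39, all negative, with 0 called and 1 at an unadjusted p under 0.05. SDHAP1 and SDHAP3, copies of the succinate dehydrogenase gene SDHA, had -0.72 and -0.78, and SDHA had -0.38 (limma adjusted p = 0.0673). Neither SDHA copy was called, and 1 had an unadjusted p under 0.05. The groups overlapped in each of these FRG1 and SDHA copies. AC024560.3, whose closest coding gene is also SDHA, had -0.19 and was not called. The 4 unprocessed WASH copies had a median of 0.15, which turned to -0.01 with median-ratio scaling and -0.05 with quantile normalization, and the processed WASH5P had a log2 fold change of 0.35. AC027612.6 at 89.4 TPM, RP11-423H2.1, a copy of the mRNA export gene THOC3, at 66.6 TPM, RP11-452N17.1, a fragment of EIF3E, at 44.7 TPM and DSTNP2, a copy of the actin-depolymerizing gene DSTN, at 39.6 TPM completed the most abundant unprocessed members, and none of the 4 passed the test.

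Of the members with zinc finger names, 2 of 3 unprocessed members were called higher, beside 10.2% of all tested genes, with a median log2 fold change of 0.67 beside 0.12. Of the 5 processed and 2 unitary ones limma called 0, with 0 and 1 at an unadjusted p under 0.05 and medians of 0.13 and 0.37. ZNF876P measured 11.08, 20.01 and 8.50 TPM in 3D and 4.95, 4.38 and 4.74 TPM in 2D and rose by 1.24 on the log2 scale (SE 0.28, limma adjusted p = 0.0309). It averaged at least 5 TPM only in 3D, so the choice of members favoured its call, the count of 2 and the median. ZNF826P rose by 0.67 (SE 0.17, limma adjusted p = 0.0420). With quantile normalization 0 of the 3 were called, and with median-ratio scaling 1.

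RP11-155G14.5 (EFCAB3P1) measured 14.48, 21.46 and 18.18 TPM in 3D and 1.58, 1.67 and 3.55 TPM in 2D and rose by 2.58 on the log2 scale (SE 0.26, limma adjusted p = 0.00213). EFCAB3, the EF-hand gene it resembles, averaged 0.1 TPM. All windows of the pseudogene occur in the overlapping row RP11-155G14.6, which rose as well (log2 fold change 2.05, limma adjusted p = 0.0167), so the deposited values cannot tell the 2 rows apart by sequence. CTD-2012J19.2, 121 nt long and identical to part of CCDC127, rose by 1.73 (SE 0.46, limma adjusted p = 0.0490), with 3D libraries at 8.48, 3.23 and 13.83 TPM. Its call was lost under 11 of 16 alternatives. CTD-2012J19.2, like RP11-155G14.5, averaged at least 5 TPM only in 3D, so the choice of members favoured both calls.

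The remaining unprocessed members called higher were CLUHP3 at a log2 fold change of 1.03, RP11-465B22.3 at 0.99, RP11-488L18.4 (ZNF731P) at 0.56 and RNF216P1 at 0.54. CLUHP3 is a copy of CLUH, a binding protein of mRNAs for mitochondrial proteins, and measured 9.55, 10.47 and 5.77 TPM in 3D and 4.19, 3.54 and 3.07 TPM in 2D. RP11-465B22.3 measured 11.42, 16.62 and 15.93 TPM in 3D and 5.46, 5.94 and 9.45 TPM in 2D. In both, each 3D library lay above each 2D library. CLUHP3 averaged at least 5 TPM only in 3D, so the choice of members favoured its call.

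RP1-229K20.5, which reached the threshold through 3D alone, had the highest log2 fold change of the members. It measured 17.67, 26.47 and 6.79 TPM in 3D and 0.20, 0.17 and 0 TPM in 2D, and rose by 3.82 on the log2(TPM + 1) scale (SE 0.42, limma adjusted p = 0.00308). This unprocessed pseudogene lies within an intron of TREM1 on the same strand (chr6:41269875-41270239, GRCh38), shared no window with another gene, and had no coding relative by the criteria used. The first 90 nt of its transcript, from GENCODE 29, are shown because its reads could be told from all other annotated transcripts.
RP1-229K20.5: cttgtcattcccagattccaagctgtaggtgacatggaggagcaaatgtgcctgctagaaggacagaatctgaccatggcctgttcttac

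TREM1, a receptor that amplifies inflammatory signals and is best known from myeloid cells, measured 162.62, 222.98 and 154.72 TPM in 3D and 4.57, 4.26 and 3.04 TPM in 2D. It rose by 5.19 on the log2 scale (SE 0.19, limma adjusted p = 6.94e-05), and 3D replicate 2 was the highest library for both genes. The leukocyte markers summed to 2.52 to 3.75 TPM in 3D and 2.28 to 3.4 TPM in 2D. The comparison of the 2 genes turned with the scale. On the log2(TPM + 1) scale the pseudogene minus TREM1 difference was -1.36 (SE 0.36, limma adjusted p = 0.0430), while with a pseudocount of 0.1 it was 0.73 (SE 0.52, limma adjusted p = 0.425), and the ratio of the 3D to the 2D mean was 137.6 for the pseudogene and 45.5 for TREM1. No direction is read from it. Reads of the unspliced host transcript also cover an intronic pseudogene, and their part in its level was not tested.

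The calls were counted apart for members that lie in a coding gene on the same strand. Of 36 processed members inside such a gene, 5 were called higher and 0 lower (9 had an unadjusted p under 0.05), and of 136 outside, 3 were called higher and 5 lower. Of 5 unprocessed members inside a coding gene 2 were called higher, and of 105 outside 9 were called higher and 1 lower. Over all tested genes 10.2% were called higher and 2.12% lower, and 5 of 36 is 13.9%. In both types, members called higher inside a coding gene included some that averaged at least 5 TPM only in 3D. The choice of members favoured their calls and so these shares. Of all processed members, 5 of 154 with at least 5 TPM in both groups' means were called higher, and 3 of the 18 others. The counts inside and outside were not split in this way. No test of these counts was made.

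Of 34 members with a tested host, 3 were called higher and 3 lower against the host, where 3.53% and 5.88% of all 85 such pairs were called. The 3 called higher were RP11-157G21.2, TCEB1P19 and CTD-2114J12.1. Each averaged at least 5 TPM only in 3D, so the choice of members favoured these calls and their count. RP1-229K20.5 is 1 of the 3 lower, and its sign turned with a pseudocount of 0.1, where TCEB1P19 and CTD-2114J12.1 also lost their calls (limma adjusted p = 0.0563 for both). RP11-157G21.2 lies in an intron of the scavenger receptor gene CD163L1, which rose by 0.69 (limma adjusted p = 0.0367), and differed from it by 1.68 (SE 0.36, adjusted p = 0.0155). TCEB1P19 overlaps an exon of the kinase gene PKN2, which rose by 0.69 (adjusted p = 0.0342), and differed from it by 1.02 (SE 0.28, limma adjusted p = 0.0464). CTD-2114J12.1, a copy of the ceruloplasmin gene CP inside LRRC69, differed from its host by 2.06 (limma adjusted p = 0.0155). LRRC69 averaged only 1.14 TPM, near the minimum of 1 TPM for a test. The change of CTD-2114J12.1 against that of CP was -0.39 (SE 0.27, limma adjusted p = 0.568). It measured 19.37, 19.76 and 10.56 TPM in 3D and 7.98, 5.52 and 1.21 TPM in 2D and did not itself pass the test (limma adjusted p = 0.0611), while CP measured 562.61, 593.93 and 300.42 TPM in 3D and 238.25, 154.35 and 31.1 TPM in 2D.

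RP11-641D5.1 had a log2 fold change of -0.36 inside MECOM, which rose by 1.00 (limma adjusted p = 0.0275), a difference of -1.36 (adjusted p = 0.0155). ZNF321P differed from its host, which averaged only 1.87 TPM, by -1.59 (limma adjusted p = 0.0155). RP11-611O2.3 lies within an exon of MDM2, the ubiquitin ligase of p53, and shares all its windows with it. It measured 17.33, 13.85 and 9.15 TPM in 3D and 5.37, 4.75 and 6.06 TPM in 2D, MDM2 rose by 0.74 (adjusted p = 0.0410), and their difference of 0.40 did not pass (limma adjusted p = 0.386). AC006011.4 lies in the same way in an exon of the RNA polymerase II gene POLR2D, whose log2 fold change was -0.19, and the difference of 0.99 did not pass (limma adjusted p = 0.0631).

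**Figure D5:**
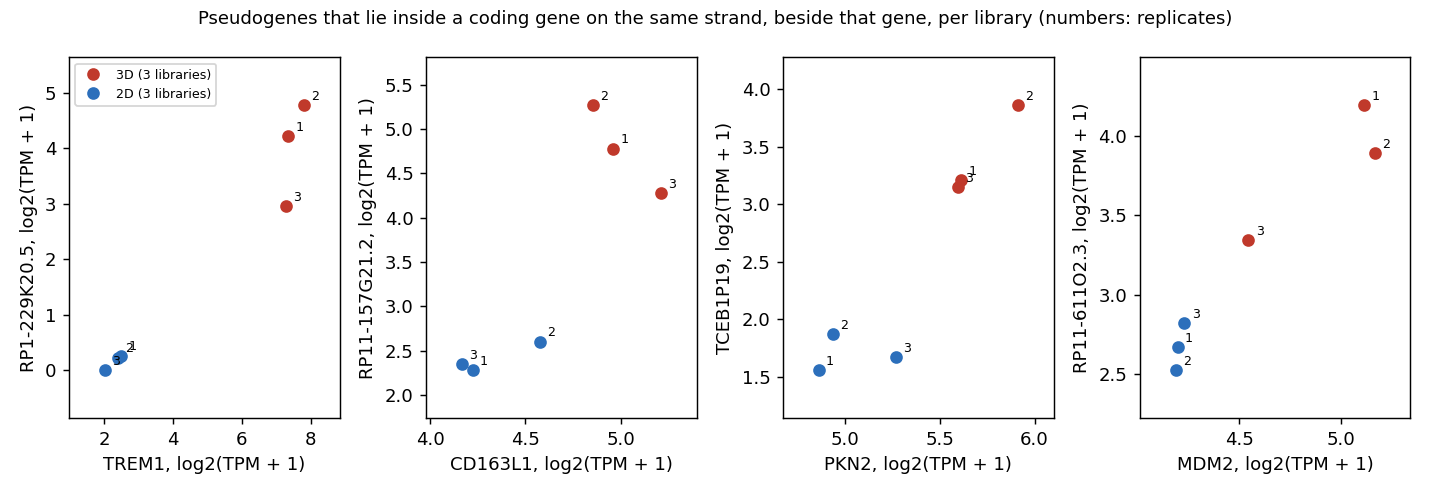
Levels on the log2(TPM + 1) scale of 4 members called higher (vertical axes) against the coding gene that holds them (horizontal axes), per library, with replicate numbers, 3D in red and 2D in blue. In each panel the 3 3D libraries lie above and to the right of the 3 2D libraries. Only members whose host was also called higher are drawn. Not drawn are AC006011.4 (host log2 fold change -0.19), AC006978.6 (host 0.86, limma adjusted p = 0.366) and RNF216P1 (host at 0.30 TPM, not tested), which were called higher too.

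The unitary members had no call. FER1L4, a relic of a ferlin gene, was the most abundant and measured 29.90, 33.70 and 32.83 TPM in 3D and 34.11, 35.76 and 55.13 TPM in 2D, without overlap and short of the threshold (log2 fold change -0.33, SE 0.19, limma adjusted p = 0.281). CPHL1P, a relic of a copper oxidase gene related to ceruloplasmin, measured 13.14, 16.46 and 13.40 TPM in 3D and 8.58, 16.97 and 19.72 TPM in 2D, with overlap and a log2 fold change near 0. ZNF271P, ZNF252P and AFG3L1P, a relic of a mitochondrial protease gene, averaged 11.2, 7.47 and 6.997 TPM, each with its 3D libraries above its 2D libraries and short of the threshold (limma adjusted p = 0.0700, 0.222 and 0.168).

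Annotation limits what the rows stand for. Of the 290 members, 289 were found in GENCODE 29, and 5 of these carry another biotype there, 4 as protein-coding genes (HNRNPA1P48, FAM103A2P, NUDT4P1 and RP11-27I1.4) and NBR2 as a noncoding RNA. NUDT4P1 and NUDT4P2 had identical values in all 6 libraries, at a mean of 9.83 TPM, and can count as 1 measurement.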

How the data were processed

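Poly(A) RNA of 6 HCC827 libraries, 3 per culture, was sequenced as 75-nt single reads. The deposited table holds TPM per gene that the authors made with cutadapt 2.3, STAR 2.7.0d and RSEM 1.3.1 on hg38, per the submitters' processing notes. The library kit was directional per the labels, while the sources used here do not give the strand setting or the annotation release. TPM sums to a fixed total, so the depth is unknown, and the number of libraries limits the precision.

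Values were tested as log2(TPM + 1) with limma 3.58.1 (R 4.3.3; eBayes with trend, two-sided) over the 15042 genes that averaged 1 TPM or more, with Benjamini-Hochberg adjustment over all of them and a threshold of 0.05. The change of a pseudogene minus that of a parent by name, of its closest coding gene (blastn 2.17.0, at least 50% of the transcript aligned outside its own locus) or of its host gene was tested in the same way over all such pairs. The pairs by sequence and by host, the latter also with a pseudocount of 0.1, were added after the data were seen. Each script was run with Python 3.11.15 and matplotlib 3.10.9 or R. The fit over all genes was tested on simulated data.

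Genes named were the 10 most abundant members of each type, up to 8 called members per direction and type, the 3 nearest the 5 TPM threshold on each side, members that differed from a parent, the 5 most abundant unitary members, and the parents of these; a few items covered by this rule are not reported here. Further members and families (among them the FRG1, GOLGA2, SDHA, SMG1 and WASH copies, EEF1A1P5, LDHAP4, RPL3P4, BTF3L4P2, DUXAP9 and the host genes) were named after their values were seen. Members and lists were chosen with earlier results of these data known. Alternatives were other pseudocounts, filters and scalings, leaving out libraries, and the replicate number as a block. Same-numbered libraries had weak positive correlations of deviations, and numbers were not treated as pairs in the main fit.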

Additional observations from a re-analysis of the deposited data

How the results depend on the processing

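Counts of calls depended on single libraries and on the scaling, and the cause was not tested. Over all genes, limma called 1536 higher and 319 lower; without the filter on low levels the counts were 729 and 86, with median-ratio scaling 943 and 669, and with quantile normalization 869 and 576. Leaving out 1 library at a time gave 331 to 1610 higher and 25 to 553 lower, and without both libraries numbered 3 (chosen after seeing the data) 1239 were lower. Processed members called higher (8) numbered 3 without the filter, 18 without both libraries numbered 3, 4 among members of 10 TPM or more, 5 with at least 5 TPM in each group, and 2 to 11 with 1 library left out. Processed members called lower (5) numbered 1 without the filter, 12 with median-ratio scaling, 13 with quantile normalization, 21 without both libraries numbered 3, and 1 to 11 with 1 library left out. Unprocessed members called higher (11) numbered 3 without the filter, 6 with median-ratio scaling, 4 with quantile normalization, 22 without both libraries numbered 3, 5 among members of 10 TPM or more, 5 with at least 5 TPM in each group, and 2 to 14 with 1 library left out. Unprocessed members called lower (1) numbered 0 without the filter or at 10 TPM, 5 with either scaling, 12 without both libraries numbered 3, and 0 to 8 with 1 library left out.

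Same-numbered libraries had correlations of deviations of 0.10, 0.04 and 0.19, and the other pairs ran from -0.17 to 0.13. Whether libraries of the same number share a batch was not tested. With the replicate block, 8 processed and 3 unprocessed members were called lower, and 10 and 11 were called higher. For pairs with the parent by name, 1 was called higher and 5 lower; the block gave 0 and 0, a minimum of 5 TPM 0 and 0, a pseudocount of 5 gave 4 and 9, a pseudocount of 0.1 gave 0 higher, pairs by sequence 2 and 8, and leaving out 1 library 0 to 5 and 0 to 4. Without both libraries numbered 3, 3 pairs were called higher.

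The sign turned in 6 genes without a call. With 1 library left out at a time, the log2 fold change ran from -0.23 to 0.050 for PPIAP22, from -0.62 to 0.20 for RP11-452N17.1, from -0.34 to 0.22 for CPHL1P, from -0.24 to 0.13 for RPL24P4 and from -0.34 to 0.24 for RP11-1212A22.1. RPL18AP3 was -0.052 with median-ratio scaling and -0.019 without both libraries numbered 3, where CPHL1P was 0.26. With a pseudocount of 0.1 CPHL1P was 0.0038 and RPL24P4 0.0047, and without mitochondrial genes they were 0.019 and 0.018. RP11-1212A22.1 was -0.12 with median-ratio scaling and -0.19 with quantile normalization.

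With 3 libraries per group and unknown depth, small changes of low members cannot be resolved, and a level of a member that shares most windows with a relative cannot be told from that relative's reads.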
